A study of Mus musculus with 3 samples.

Results

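Fibroblast growth factors (FGFs), a pair of their receptors and the FGF target gene Etv5 were followed in single neuronal nuclei of mothers, virgin males and virgin females. The members were a fixed list of 10 genes, all of which were found among the 32285 genes of the count table. They comprise the secreted ligands Fgf1, Fgf9 and Fgf10, the intracellular factors Fgf11, Fgf12, Fgf13 and Fgf14, the receptors Fgfr1 and Fgfr2, and Etv5. They were read in the 592 nuclei, of 603 in all, that the authors annotated as neurons.

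Nuclei were isolated from tissue dissected as the lateral habenula, a small epithalamic structure that takes part in responses to aversive events, and were sorted for green fluorescence. The labels name them KASH-GFP+ BNST LHb neurons, where KASH-GFP is a fluorescent protein anchored to the nuclear membrane, LHb stands for lateral habenula and BNST for the bed nucleus of the stria terminalis, a part of the limbic forebrain. The groups were mothers, which are sexually experienced females, virgin males and virgin females, and each group was a pool of 3 mice that gave 1 library of the 10x Chromium 3′ assay. Strain, age, days after birth of the mothers' litters and the way the fluorescent label reached the cells are unstated in the sources used here. With 1 library per group, no difference between groups below has a replicate check and none was tested. Values are CPM, the summed unique molecular identifiers (UMIs, counted transcripts) of a gene per 1000000 UMIs of the same nuclei, and brackets give exact 95% intervals that cover counting error only.

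FGF ligands outside the cell bind FGF receptor tyrosine kinases together with heparan sulfate, and the receptors signal through the Ras and ERK cascade to transcription factors of the ETS family such as Etv5. Fgf1 can bind all FGF receptors, Fgf9 prefers the c isoforms, and Fgf10 acts mainly through the b isoform of Fgfr2, known best from lung and limb development. Fgf11 to Fgf14, the FGF homologous factors, stay inside the cell, where they bind the tails of voltage-gated sodium channels and set how readily neurons fire.

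The libraries held 201 neuronal nuclei and 2691639 UMIs in mothers, 204 nuclei and 2122919 UMIs in virgin males, and 187 nuclei and 2718356 UMIs in virgin females. Median depth was 11898 UMIs per nucleus in mothers, 9414 in virgin males and 13181 in virgin females. No cell barcode was shared between libraries. Neuronal markers (4 of 4 genes) summed to 3607, 3376 and 3530 CPM in mothers, virgin males and virgin females. The authors' clusters 0 to 4 differed in markers of the labelled region. The 6 lateral habenula markers summed to 899, 1116 and 1173 CPM in clusters 0, 2 and 3, against 1893 CPM in cluster 1 and 1760 CPM in cluster 4. Of these, Pou4f1 had no UMI in clusters 0, 2 and 3 and Gpr151 none in cluster 3, while Gap43 was highest in cluster 0, at 231 CPM. Htr2c stood at 403, 444 and 306 CPM in clusters 0, 2 and 3. It was highest in cluster 1, at 728 CPM, and lowest in cluster 4, at 245 CPM. The high sum of cluster 4 rested mainly on Chrm3, which made up 992 CPM of it. Chrm3 was nearly level between cluster 1 (644 CPM) and cluster 3 (598 CPM). Lower Chrm3 values were seen for cluster 2 (291 CPM) and cluster 0 (107 CPM). Single markers thus had no common cluster order. The 7 thalamic markers summed to 7878, 9100 and 11609 CPM in clusters 0, 2 and 3, against 2369 CPM in cluster 1 and 1570 CPM in cluster 4. The clusters are therefore called by number. Markers of ependymal and choroid cells summed to 356 CPM in the neuronal nuclei of virgin males, against 1.86 CPM in mothers against 0.736 CPM in virgin females. The clusters were made from these same nuclei and genes, so differences between clusters are a description with no test.

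Of the 10 members, 9 reached 100 UMIs, and 4 of these, Fgf1, Fgf10, Fgf13 and Fgfr1, stood at least 2-fold higher in the cluster with their highest mean than in that with their lowest mean in each of the 3 libraries. Over all genes with 100 UMIs, 20.5% met the same rule. Fgf11, with 43 UMIs, was below the minimum.

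**Figure D1:**
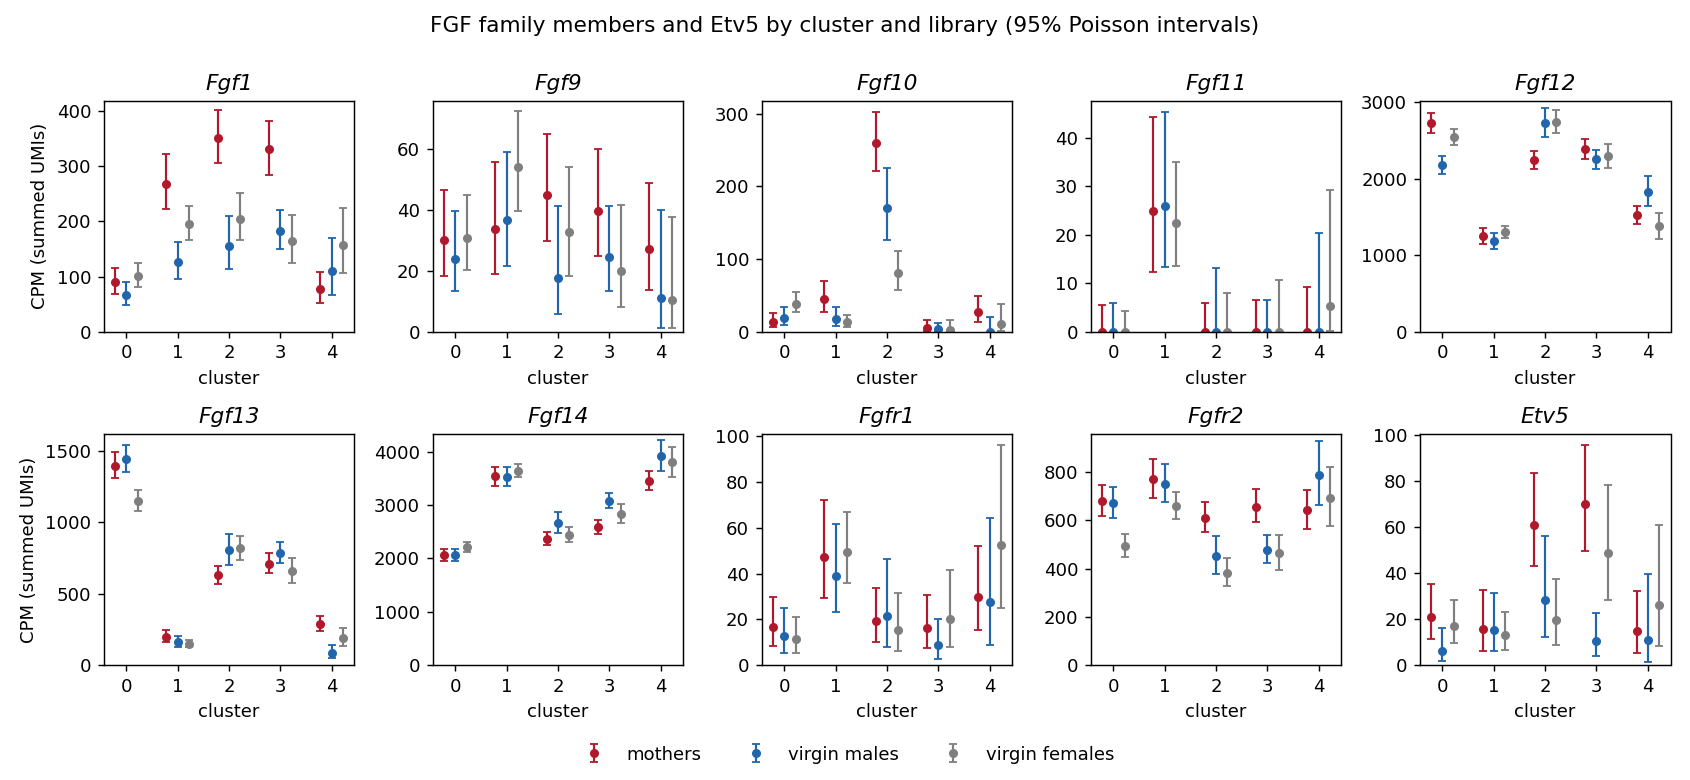
Level in CPM (y axis, from 0, with 95% Poisson intervals) of the 10 members in clusters 0 to 4 (x axis), with mothers, virgin males and virgin females from left to right within each cluster. Fgf10 is highest in cluster 2 in each library, Fgf11 has UMIs almost only in cluster 1, and Fgf13 is highest in cluster 0, at 1396, 1445 and 1151 CPM.

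The promoters of Fgf10 and of Fgf12, Fgf13 and Fgf14 are shown because Fgf10 had the largest ratio of mothers to virgin females among the members in their highest clusters and because the other 3 genes varied together, or inversely, over the clusters. Each is the 250 bases upstream of a RefSeq transcription start on GRCm38.p6, written 5′ to 3′ along the gene's strand, with CpG dinucleotides in capitals. They lie at chr13:118714449-118714698 on the plus strand (Fgf10), chr16:28446076-28446325 on the minus strand (Fgf12), chrX:59567349-59567598 on the minus strand (Fgf13) and chr14:124192547-124192796 on the minus strand (Fgf14). Positions of the members given with their values are RefSeq's on the same build. For genes with several starts, the start shared by most annotated GENCODE transcripts was taken, 2 of 6 for Fgf12 and 5 of 9 for Fgf13. Fgf14 had 1 window, shared by 1 of 2 GENCODE transcripts, and none at its outermost start. The starts taken lie inside the genes, at 28446075 for Fgf12, 59567348 for Fgf13 and 124192546 for Fgf14. On the minus strand these genes begin at 28753243, 59585572 and 124677686. The CpG counts below thus describe 1 start of each gene.
Fgf10: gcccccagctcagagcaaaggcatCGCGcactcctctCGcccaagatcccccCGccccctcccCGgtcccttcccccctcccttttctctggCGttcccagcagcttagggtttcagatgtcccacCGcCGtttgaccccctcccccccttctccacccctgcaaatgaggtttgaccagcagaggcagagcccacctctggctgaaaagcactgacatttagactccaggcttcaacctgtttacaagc
Fgf12: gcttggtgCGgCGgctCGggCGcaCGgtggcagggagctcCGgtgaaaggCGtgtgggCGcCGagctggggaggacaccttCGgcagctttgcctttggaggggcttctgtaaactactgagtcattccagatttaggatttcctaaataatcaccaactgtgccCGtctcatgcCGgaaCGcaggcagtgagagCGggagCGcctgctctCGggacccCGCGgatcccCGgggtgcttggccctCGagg
Fgf13: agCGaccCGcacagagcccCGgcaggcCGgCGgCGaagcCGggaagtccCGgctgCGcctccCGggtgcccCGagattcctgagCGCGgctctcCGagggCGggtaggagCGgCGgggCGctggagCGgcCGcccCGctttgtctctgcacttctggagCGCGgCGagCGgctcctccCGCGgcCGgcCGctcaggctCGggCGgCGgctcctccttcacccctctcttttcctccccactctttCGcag
Fgf14: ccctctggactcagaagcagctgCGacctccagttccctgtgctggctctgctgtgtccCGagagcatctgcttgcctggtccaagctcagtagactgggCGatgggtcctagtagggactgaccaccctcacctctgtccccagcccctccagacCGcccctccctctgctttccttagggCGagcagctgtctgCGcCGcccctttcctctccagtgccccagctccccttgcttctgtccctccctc
The Fgf13 window held 33 CpG and the Fgf12 window 20, against 8 in that of Fgf10 and 7 in that of Fgf14, with a median of 6 over 32851 windows of all genes. Fewer CpG than in the Fgf13 window were found in 96.0% of all windows, and fewer than in the Fgf14 window in 53.7%. Among the 15 windows of the 8 members that had one, an ETS motif (CCGGAA, searched on both strands) had 1 match, at -76 to -71 of the Fgf12 window, and 12% of all windows held one. A TCF/LEF motif (CTTTGAA or CTTTGAT, both strands) was found in 7.48% of all windows and in none of those 15.

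Fgf10, the secreted ligand of the b isoform of Fgfr2 (chr13:118714699-118792573, plus strand), was concentrated in cluster 2, which held 68.6% of its UMIs in 16.4% of the neuronal nuclei. Its level there was 260.0 CPM [221, 303] in mothers, 170.5 CPM [126, 226] in virgin males and 80.7 CPM [56.9, 111] in virgin females. The mothers' interval lay apart from that of virgin females and met that of virgin males at its edge, and the interval of virgin males lay above that of virgin females. In the other clusters Fgf10 ranged from 0 to 45.1 CPM. Within each library, cluster 2 exceeded the other neuronal nuclei by 3.63 on the log2 scale in mothers, 3.82 in virgin males and 1.93 in virgin females, a mean of 3.13 ± 1.04 (SD, n = 3 libraries, 0.5 UMI added to each sum). Without the virgin females' library this mean was 3.72. Cluster 2 was the highest cluster for Fgf10 in all 3 libraries, and the ranges of clusters 1, 0, 4 and 3, next in that order, overlapped between neighbours.

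An Fgf10 UMI was found in 36 of 46 cluster 2 nuclei of mothers, 15 of 25 of virgin males and 14 of 26 of virgin females, that is 78.3% [63.6, 89.1], 60.0% [38.7, 78.9] and 53.8% [33.4, 73.4]. Thinned to 5000 UMIs per nucleus, with 59 shallower neuronal nuclei left out over all clusters (14 of mothers, 30 of virgin males and 15 of virgin females), these shares were 68.2%, 50% and 30.8%. The richest cluster 2 nucleus held 16 of 162 Fgf10 UMIs in mothers, 7 of 48 in virgin males and 7 of 37 in virgin females. In cluster 3, the lowest for Fgf10 by its mean, 6 of 91 nuclei had a UMI (6.59%, median depth 15007 UMIs, against 12639 in cluster 2). None of the 11 non-neuronal nuclei had one, which allows a share of up to 28.5% (Clopper-Pearson) at a median depth of 4780 UMIs.

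**Figure D2:**
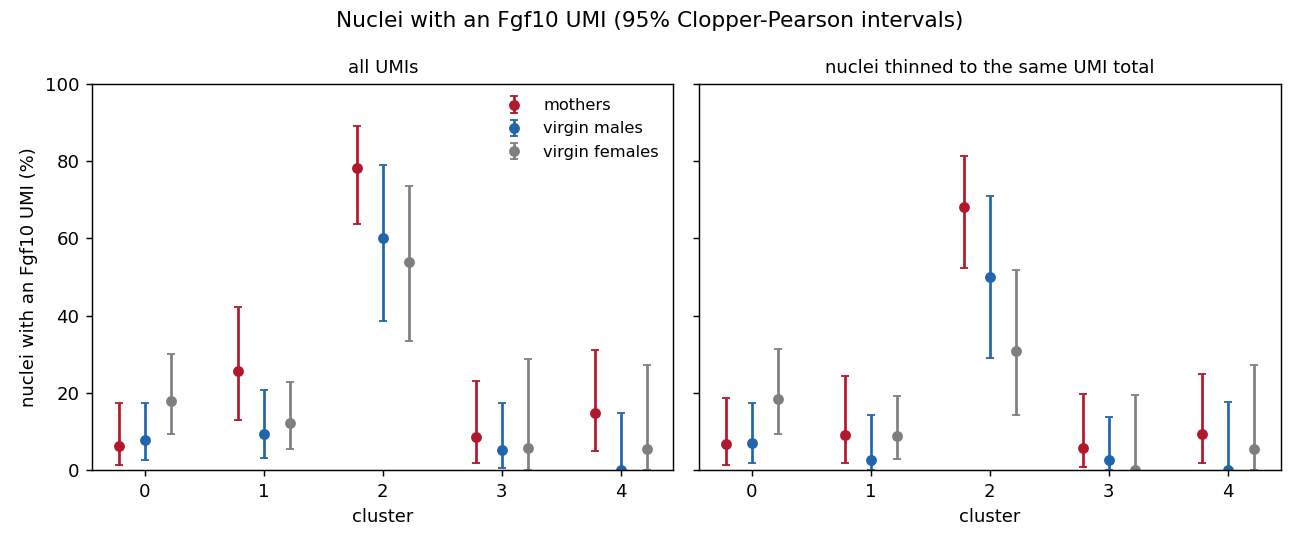
Percent of nuclei with at least 1 Fgf10 UMI (y axis, 95% Clopper-Pearson intervals) by cluster (x axis) for mothers, virgin males and virgin females from left to right, with all UMIs in the left panel and nuclei thinned to 5000 UMIs in the right panel. In cluster 2 the thinned shares are 68.2%, 50% and 30.8%.

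Of 97 cluster 2 nuclei, 74 carried the authors' subtype label LHb1 and 22 the label LHb2, and Fgf10 was seen in both. In nuclei labelled LHb1 its level was 201 CPM in mothers, 188 CPM in virgin males and 80.3 CPM in virgin females, over 30, 19 and 25 nuclei. The nuclei labelled LHb2 held 394 CPM [309, 495] in mothers (15 nuclei) and 116 CPM [50.2, 229] in virgin males (6 nuclei), so that LHb2 lay above LHb1 in mothers and below it in virgin males, where the intervals overlapped. The antisense gene Gm16263, which overlaps the start of Fgf10 on the opposite strand, had 43 UMIs and was likewise highest in cluster 2, at a mean of 26.1 CPM over the 3 libraries. Whether counting used strand is unstated, so UMIs of this pair cannot be told apart with certainty.

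Fgf1, a secreted ligand that binds all FGF receptors (chr18:38838672-38929470, minus strand), had its highest means in clusters 2 and 3 and its lowest in cluster 0. In cluster 2 it stood at 351 CPM in mothers, 156 CPM in virgin males and 205 CPM in virgin females. In cluster 3 it stood at 331, 182 and 164 CPM in mothers, virgin males and virgin females, and in cluster 0 at 90.4, 67.0 and 101 CPM. The mothers' value was the highest of the 3 libraries in clusters 1, 2 and 3 and the lowest in cluster 4, where it was 76.7 CPM, against 110.2 CPM in virgin males and 157 CPM in virgin females. Cluster 2 was 2.04- to 3.87-fold above cluster 0 in the 3 libraries, while the ranges of clusters 2 and 3 overlapped. Fgf1 lies within Arhgap26 on the opposite strand, a gene with 1745 UMIs whose level was 245, 191 and 251 CPM in mothers, virgin males and virgin females and highest in cluster 4.

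Fgf9, a ligand made by many neurons (chr14:58070671-58112854, plus strand), had 246 UMIs and no cluster whose range stood apart from its neighbours. Its cluster means ran from 41.6 ± 11.0 CPM in cluster 1 to 16.2 ± 9.52 CPM in cluster 4 (SD, n = 3 libraries each). The range of cluster 1 over the libraries, 33.8 to 54.2 CPM, lay above that of cluster 4, 10.5 to 27.2 CPM. The highest cluster was cluster 2 in mothers but cluster 1 in virgin males and virgin females.

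Among the intracellular factors, Fgf11 (chr11:69796068-69802944, minus strand) was seen almost only in cluster 1, with 42 of its 43 UMIs. Its level there was 24.8 CPM [12.4, 44.3] in mothers, 26.0 CPM [13.4, 45.4] in virgin males and 22.4 CPM [13.5, 35.0] in virgin females, and these intervals overlapped widely. In cluster 1, 32 of 157 nuclei had an Fgf11 UMI (20.4%). Clusters 0, 2 and 3 together gave no UMI. The 172 nuclei of cluster 0, at a median of 11465 UMIs, allow a level of up to 1.39 CPM by the floor of 3 counts, those of cluster 2 up to 2.20 CPM and those of cluster 3 up to 2.03 CPM. Cluster 1 also had the highest sum of the 7 medial habenula markers, 449 CPM, of which Nwd2 made up 387 CPM, while Calb2 was higher in cluster 0, at 84.1 CPM against 38.8 CPM, and Slc18a3 was at 0 in all clusters.

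Fgf12, Fgf13 and Fgf14 had UMIs in most neuronal nuclei (98.0%, 80.4% and 98.5%), and each split the clusters along the same line. Fgf13 (chrX:59062139-59585572, minus strand), which besides sodium channels binds microtubules, was highest in cluster 0, at 1396 CPM in mothers, 1445 CPM in virgin males and 1151 CPM in virgin females. In cluster 1 it stood at 200.5, 165 and 149.7 CPM and in cluster 4 at 287, 88.1 and 189 CPM in mothers, virgin males and virgin females. Cluster 0 was 6.93- to 8.72-fold above cluster 1, and its range lay apart from that of cluster 2, the next highest, at 629, 803 and 818 CPM.

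Fgf12 (chr16:28157783-28753243, minus strand), a sodium channel partner mutated in a human epileptic encephalopathy, stood lowest in cluster 1, at 1255 CPM in mothers, 1185 CPM in virgin males and 1299 CPM in virgin females. Its highest cluster mean was 2574 ± 289 CPM in cluster 2 (SD, n = 3), and the ranges of clusters 2, 0 and 3 overlapped. Fgf14 (chr14:123974441-124677686, minus strand), whose loss causes a hereditary ataxia in humans, ran the other way: its lowest level was in cluster 0, at 2058, 2067 and 2211 CPM, and its highest mean in cluster 4, at 3455, 3917 and 3802 CPM in mothers, virgin males and virgin females. Cluster 1, at 3536, 3527 and 3642 CPM, overlapped cluster 4 and was the higher of the pair in mothers. The step was smaller than that of Fgf13, with cluster 4 1.68- to 1.90-fold above cluster 0. Fgf14 overlaps 2 opposite-strand genes with UMIs, 1700024B18Rik (642 UMIs) and Itgbl1 (334 UMIs), both also highest in cluster 4.

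Clusters 0, 2 and 3, set together after the values were seen, separated from clusters 1 and 4 without overlap of any cluster and library for 4 of the 9 members with 100 UMIs, beside 8.87% of all genes with as many. The log2 ratio of the first 3 clusters to the other 2 was 0.85 ± 0.10 for Fgf12 and 2.48 ± 0.49 for Fgf13, and it was -0.57 ± 0.06 for Fgf14 and -1.48 ± 0.31 for Fgfr1 (SD, n = 3 libraries). Clusters 0, 2 and 3 are those with the high thalamic marker sums given above, and the part of these cell identities in the levels was not tested. Over the 15 sums of cluster and library, with 10 CPM added, Pearson's r on the log2 scale was -0.94 between Fgf13 and Fgf14, 0.84 between Fgf12 and Fgf13 and -0.81 between Fgf12 and Fgf14. These points share libraries, clusters and one CPM scale and are described with no p. From nucleus to nucleus within a cluster, after thinning, r ranged from -0.20 to 0.10 between Fgf13 and Fgf14, from 0.05 to 0.43 between Fgf12 and Fgf13 and from -0.21 to 0.33 between Fgf12 and Fgf14, over 69 to 154 nuclei a cluster. Fgf13 averaged 0.827 to 6.90 UMIs in these thinned nuclei.

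**Figure D3:**
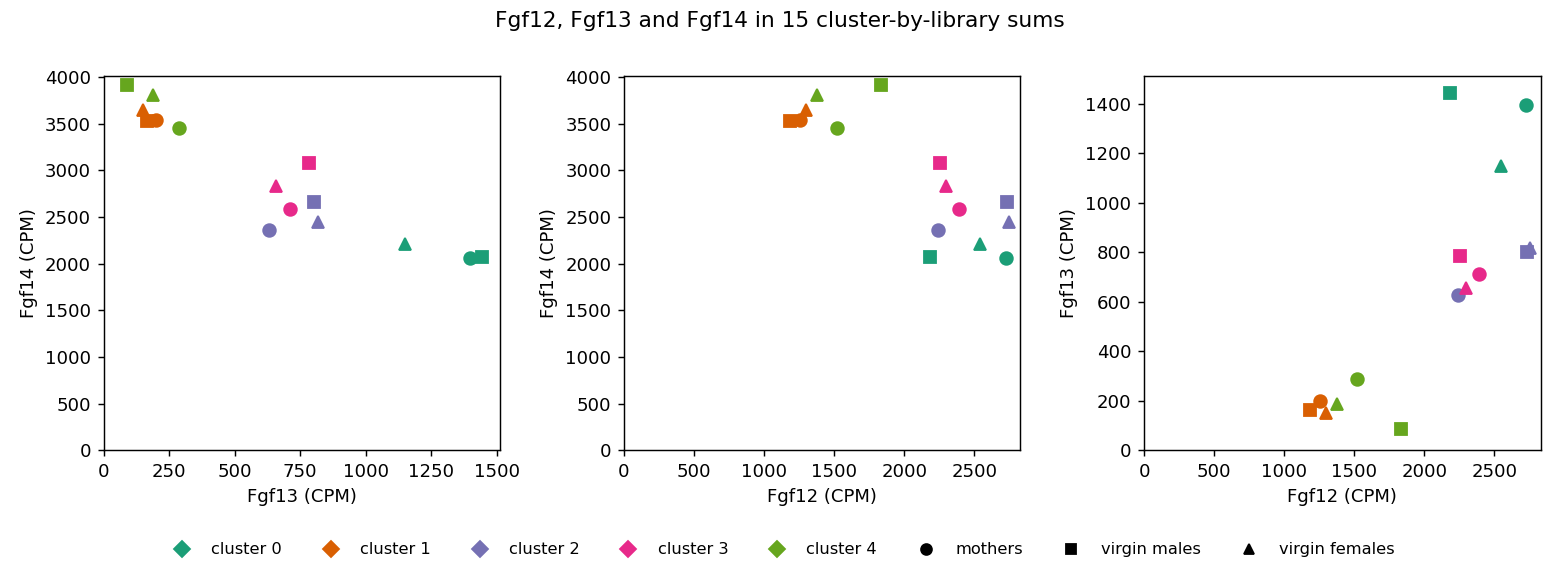
Fgf14 against Fgf13 (left), Fgf14 against Fgf12 (middle) and Fgf13 against Fgf12 (right), each axis in CPM from 0, for the 15 sums of 5 clusters (colours) and 3 libraries (shapes). Clusters 1 and 4 sit at low Fgf12 and Fgf13 and at Fgf14 levels of 3455 to 3917 CPM, above the 2058 to 3082 CPM of clusters 0, 2 and 3.

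Of the receptors, Fgfr1 (chr8:25518759-25575718, plus strand), which binds most FGFs, had its highest mean in cluster 1, at 47.3 CPM [29.3, 72.3] in mothers, 39.0 CPM [23.1, 61.6] in virgin males and 49.5 CPM [35.7, 66.9] in virgin females. Its lowest mean was 13.6 ± 2.66 CPM in cluster 0 (SD, n = 3), so that cluster 1 was 2.80- to 4.17-fold above cluster 0. The ranges of clusters 1 and 4 overlapped, with 52.4 CPM in cluster 4 the highest value in virgin females, and those of both lay above the ranges of clusters 2, 3 and 0. Fgfr1 had 183 UMIs in 22.3% of neuronal nuclei.

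Fgfr2 (chr7:130162451-130266808, minus strand), the receptor whose b isoform binds Fgf10, was seen in 98.1% of neuronal nuclei and varied little between clusters, from a mean of 727 ± 59.6 CPM in cluster 1 to 482 ± 117 CPM in cluster 2 (SD, n = 3 each). Neighbouring clusters overlapped throughout. Cluster 2, the highest for Fgf10, was the lowest for Fgfr2 in each library, at 611 CPM in mothers, 451 CPM in virgin males and 384 CPM in virgin females. In thinned cluster 2 nuclei, an Fgfr2 UMI was found in 43 of 50 nuclei with an Fgf10 UMI and in 34 of 44 without one. These 3′ counts do not separate the b and c isoforms. The GENCODE M21 span of Fgfr2 runs on to 133123350 and overlaps 69 genes, and whether the authors' counting used it is unstated.

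Etv5, an ETS transcription factor induced by FGF signalling (chr16:22381313-22439570, minus strand), had 188 UMIs and no common cluster order. In cluster 3 it stood at 70.1 CPM [49.8, 95.8] in mothers, 10.5 CPM [3.85, 22.8] in virgin males and 48.9 CPM [28.5, 78.3] in virgin females. In cluster 2 the values were 61, 28.4 and 19.6 CPM, and in cluster 1 they were 15.8, 15.2 and 13 CPM in mothers, virgin males and virgin females. The libraries lay within counting error of each other in cluster 1, whereas in cluster 3 virgin males lay below both other libraries and in cluster 2 virgin females lay below mothers. In cluster 2 the intervals of mothers and virgin males overlapped. The ranges of all neighbouring clusters overlapped.

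Genes with the most similar levels over the 15 sums, among 9110 genes with 100 UMIs, were taken by Pearson's r for the 4 members that met the 2-fold rule. Fgf10 was followed most closely by Egflam, a matrix protein of photoreceptor synapses (r = 0.882), then by Opcml (r = 0.777) and Gm48091 (r = 0.776). For Fgf13 these were Slc7a8, an amino acid transporter (r = 0.978), Tox, a nuclear protein known from T cells (r = 0.974), and Gm11802 (r = 0.968). For Fgfr1 they were Scube1 (r = 0.930), Osbpl9 (r = 0.923) and Gm12743 (r = 0.922), and for Fgf1 they were 4932413F04Rik (r = 0.879), Sirpa (r = 0.876) and Rab10os (r = 0.868). Egflam, with 101 UMIs, stood at a mean of 46.3 CPM in cluster 2, 13.6 CPM in cluster 0 and 2.16 to 3.73 CPM in the other clusters.

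Between mothers and virgin females, over all neuronal nuclei, 3 of the 10 members differed at least 1.5-fold with at least 20 UMIs in the pair, against 13.2% of the 13119 genes with as many UMIs. Fgf10 and Etv5 were higher in mothers (2 of 10, against 6.66% of genes), and Fgf11 was lower (1 of 10, against 6.55%). Fgf10 had 76.2 CPM in mothers against 31.3 CPM in virgin females, a 2.44-fold ratio [1.88, 3.17]. Etv5 had 38.6 CPM in mothers against 21 CPM in virgin females (1.84-fold [1.32, 2.59]). Fgf11 had 4.09 CPM in mothers against 7.36 CPM in virgin females, from 11 and 20 UMIs, and its ratio of 0.555 [0.240, 1.22] included 1. The median log2 ratio of the members was 0.08, against -0.01 over all genes.

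Mothers held 46 of 201 nuclei in cluster 2, virgin females 26 of 187, so the ratios were also taken with each cluster weighted equally. The Fgf10 ratio was then 2.41, while that of Etv5 was 1.46 and that of Fgf11 was 0.897, both within 1.5-fold. Cluster 1, which held nearly all Fgf11 UMIs, made up 19.4% of the mothers' neuronal nuclei and 34.8% of those of virgin females. Fgf1 had 228 CPM in mothers against 159.7 CPM in virgin females (1.43-fold [1.26, 1.62]), and Fgfr2 had 669 CPM in mothers against 537 CPM in virgin females (1.24-fold [1.16, 1.33]). Fgf12, Fgf13 and Fgf14 had ratios of 1.02, 1.09 and 0.931, Fgf9 of 1.000 and Fgfr1 of 0.864.

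**Figure D4:**
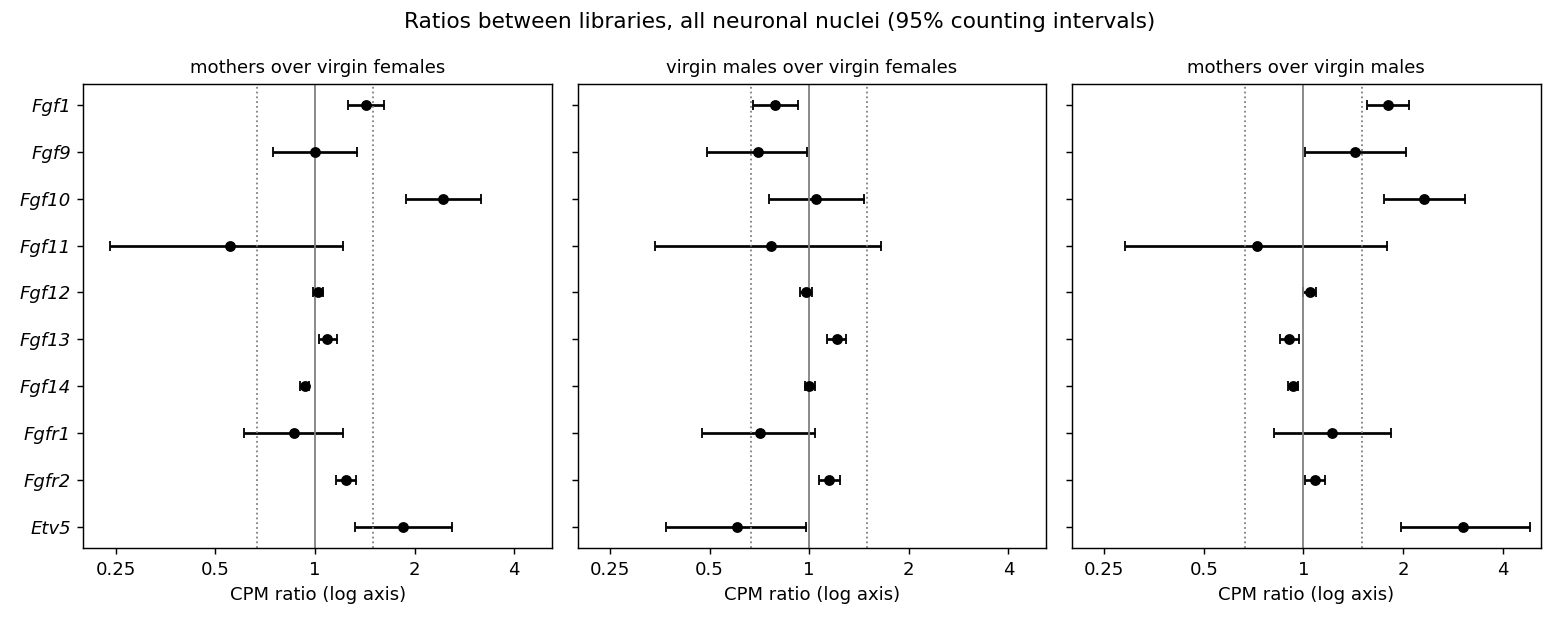
CPM ratio over all neuronal nuclei (x axis, log scale, with exact conditional binomial 95% intervals) of the 10 members (y axis) for each pair of libraries, with dotted lines at 1.5-fold either way. Fgf10 lies at 2.44 for mothers over virgin females, 1.05 for virgin males over virgin females and 2.31 for mothers over virgin males, and Fgf12 and Fgf14 lie between 0.929 and 1.05 in all 3.

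Within clusters the ratio of mothers to virgin females was not uniform. For Fgf10 it was 3.22-fold [2.24, 4.74] in cluster 2 and 3.47-fold [1.59, 8.03] in cluster 1, with 45.1 CPM in mothers against 13 CPM in virgin females in cluster 1. Cluster 2 nuclei labelled LHb1 alone had 201 CPM in mothers against 80.3 CPM in virgin females (30 and 25 nuclei). In cluster 0 the Fgf10 ratio was 0.348 [0.147, 0.741], with 13.6 CPM in mothers against 38.9 CPM in virgin females. The cluster 0 counts came from few nuclei, 3 of 47 in mothers, where 1 nucleus held 6 of the 9 UMIs, and 11 of 61 in virgin females. All 9 of the mothers' UMIs in cluster 0 lay in its 8 nuclei labelled LHb2, and its 39 nuclei labelled LHb1 had none. In virgin males 12 of 12 and in virgin females 32 of 34 cluster 0 UMIs lay instead in nuclei labelled LHb1. For Etv5 the ratio was 3.10-fold [1.48, 7.30] in cluster 2 and 1.43-fold [0.791, 2.70] in cluster 3. For Fgf1 it was 1.71-fold [1.34, 2.21] in cluster 2 and 2.02-fold [1.49, 2.76] in cluster 3, but 0.488 [0.286, 0.835] in cluster 4, from 31 UMIs in mothers and 30 in virgin females. Differences between clusters in these ratios were not tested.

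Fgf14 was lower in mothers than in virgin females in 5 of 5 clusters, by ratios of 0.909 to 0.971, steps far smaller than its differences between clusters. Fgfr2 was higher in mothers in 4 of 5 clusters, with the highest ratio in cluster 2 (1.59-fold [1.33, 1.91], 611 CPM in mothers against 384 CPM in virgin females). Fgf13 was higher in mothers in 4 of 5 clusters and lower in cluster 2, at a ratio of 0.769 [0.666, 0.888]. In cluster 4 it had 287 CPM in mothers, 88.1 CPM in virgin males and 189 CPM in virgin females, ratios of 1.52 [1.04, 2.28] for mothers over virgin females, 0.468 [0.242, 0.864] for virgin males over virgin females and 3.26 [1.92, 5.89] for mothers over virgin males. Of the mothers' 116 Fgf13 UMIs in cluster 4, 37 lay in 1 nucleus and 19 in a second. The median Fgf13 level per nucleus there was 101 CPM in mothers, 0 CPM in virgin males and 108 CPM in virgin females. Fgf12 was also lower in mothers in cluster 2 (0.815 [0.754, 0.880]), where it had 2240 CPM in mothers against 2750 CPM in virgin females.

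**Figure D5:**
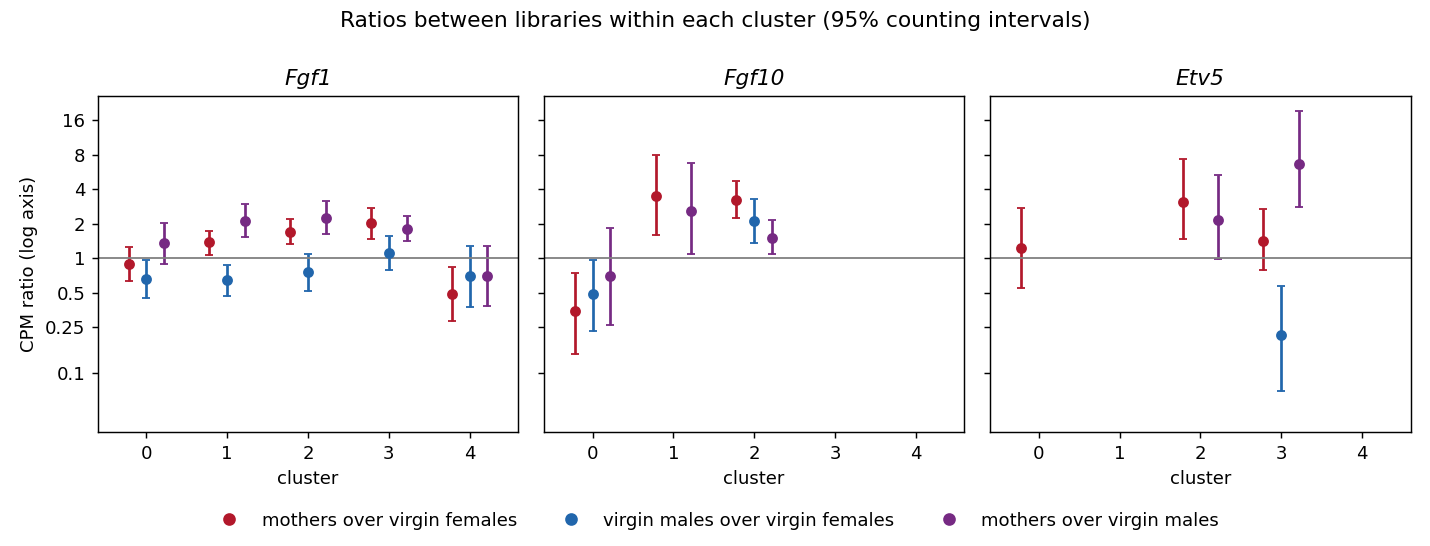
CPM ratio within each cluster (y axis, log scale, with exact conditional binomial 95% intervals) for Fgf1, Fgf10 and Etv5 by cluster (x axis), for mothers over virgin females, virgin males over virgin females and mothers over virgin males from left to right, where the pair had at least 20 UMIs. Fgf10 ratios of mothers over virgin females are 3.47 and 3.22 in clusters 1 and 2 and 0.348 in cluster 0.

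Between virgin males and virgin females, 1 of the 10 members passed 1.5-fold, against 13.1% of the 12822 genes with 20 UMIs. This was Etv5, lower in virgin males at 12.7 CPM, against 21 CPM in virgin females (0.607 [0.369, 0.975], from 27 and 57 UMIs), where 7.19% of genes were lower. No member was higher in virgin males by 1.5-fold, against 5.90% of genes. Fgf10 had 33.0 CPM in virgin males and 31.3 CPM in virgin females over all neuronal nuclei (1.05-fold [0.757, 1.46]). Within clusters the ratios pointed in opposite directions: in cluster 2 the ratio was 2.11-fold [1.35, 3.33] and in cluster 0 it was 0.492 [0.232, 0.974]. Fgfr2 was higher in virgin males in 5 of 5 clusters, by 1.03- to 1.36-fold, and had 618 CPM in virgin males and 537 CPM in virgin females overall. Fgf13 had 787 CPM in virgin males and 651 CPM in virgin females (1.21-fold [1.13, 1.29]), and with equal cluster weights this ratio was 1.11. Fgf1 was lower in virgin males, at 126 CPM against 159.7 CPM in virgin females (0.791 [0.676, 0.923]). The members' median log2 ratio was -0.19, against -0.03 over all genes.

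Between mothers and virgin males, 3 of the 10 members passed 1.5-fold, against 13.1% of the 12836 genes with 20 UMIs. All 3, Fgf1, Fgf10 and Etv5, were higher in mothers, against 7.04% of genes, and no member was lower, against 6.05%. Fgf1 had 228 CPM in mothers and 126 CPM in virgin males (1.80-fold [1.56, 2.09]), and Fgf10 had 76.2 CPM in mothers and 33.0 CPM in virgin males (2.31-fold [1.75, 3.07]). Etv5 had 38.6 CPM in mothers and 12.7 CPM in virgin males (3.04-fold [1.97, 4.83]). The mothers' Etv5 value was the higher in each of the 5 clusters, but only clusters 2 and 3 reached 20 UMIs in the pair. The ratio was highest in cluster 3 (6.68-fold [2.81, 19.3], from 39 UMIs in mothers and 6 in virgin males). In cluster 2 it was 2.15-fold [0.986, 5.33], and in cluster 1 it was 1.04-fold [0.311, 3.47], from 7 UMIs in each library. For Fgf10, cluster 2 alone gave 1.52-fold [1.10, 2.15], and mothers had 46 cluster 2 nuclei, against 25 in virgin males. Cluster 2 nuclei labelled LHb1 had 201 CPM in mothers and 188 CPM in virgin males (30 and 19 nuclei). Those labelled LHb2 had 394 CPM in mothers and 116 CPM in virgin males (15 and 6 nuclei). The 3 pairs share libraries and are not independent of each other.

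Beyond the members, 116 genes of the FGF pathway in 6 lists were read in the same nuclei. Of 15 other secreted FGFs, 5 had no UMI and none reached 100. Fgf22, known from synapse formation, had 66 UMIs and Fgf7, a close relative of Fgf10, had 50. Of the other receptors, Fgfr3 had 2 UMIs and Fgfr4 had 1. The 21 measured receptors and coreceptors included 11 with 100 UMIs, of which 6 met the 2-fold rule over clusters, beside 20.5% of all genes. Sdc2, a heparan sulfate proteoglycan, averaged 120.0 CPM in cluster 0 and 14.6 CPM in cluster 3. Gpc5, a glypican, averaged 663 CPM in cluster 0 and 97.0 CPM in cluster 2.

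Genes that make and trim heparan sulfate, the cofactor of secreted FGFs, met the 2-fold rule over clusters in 11 of 18 cases, beside 20.5% of all genes. Hs3st4, a 3-O-sulfotransferase, averaged 444 CPM in cluster 1 and 2.14 CPM in cluster 3, while its relative Hs3st1 averaged 74.4 CPM in cluster 3 and 2.65 CPM in cluster 0. Sulf1, a sulfatase that removes 6-O-sulfate, averaged 181 CPM in cluster 0 and 6.61 CPM in cluster 3, and Sulf2, a second such enzyme, averaged 47.5 CPM in cluster 1 and 0.914 to 1.18 CPM in clusters 0, 2 and 3. Of 26 genes of signal transduction with 100 UMIs, 2 met the rule, Shc3, a neuronal adaptor, and Pik3cb, a catalytic subunit of PI3-kinase. Of 10 sodium channel and partner genes, 2 met it, Scn3b, a channel beta subunit highest in cluster 0, and Mapk8ip2, a scaffold that binds intracellular FGFs, highest in cluster 1. Among targets and feedback inhibitors, 4 had 100 UMIs and 1, Etv1, a relative of Etv5, met it, at 96.6 CPM in cluster 1.

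Between mothers and virgin females, 4 of 19 heparan sulfate genes passed 1.5-fold, beside 13.2% of all genes, 2 in each direction. Hs3st1 had 32.7 CPM in mothers against 15.8 CPM in virgin females (2.07-fold [1.42, 3.05]), and the mothers' value was the higher in each of the 5 clusters. Ndst4, an N-deacetylase and N-sulfotransferase, had 25.3 CPM in mothers against 44.9 CPM in virgin females (0.563 [0.412, 0.763]), but 0.958 with equal cluster weights. Sulf2 had 12.3 CPM in mothers against 20.2 CPM in virgin females (0.606 [0.381, 0.95]). Its UMIs lay mainly in clusters 1 and 4, at means of 47.5 and 42.9 CPM. Cluster 1 made up 19.4% of the mothers' neuronal nuclei and 34.8% of those of virgin females, and cluster 4 made up 16.9% and 9.63%. The part of cluster sizes in the Sulf2 ratio was not tested. Sdc2 had 54.6 CPM in mothers against 89.8 CPM in virgin females (0.608 [0.492, 0.750]), and 0.728 with equal weights. Mapk3, which encodes ERK1, had 7.80 CPM in mothers against 14 CPM in virgin females (0.558 [0.311, 0.975], from 21 and 38 UMIs).

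Of 32 genes of signal transduction, 1 was lower and none higher by 1.5-fold in mothers than in virgin females (beside 6.55% and 6.66% of all genes). Likewise 1 was lower and none higher in virgin males than in virgin females (beside 7.19% and 5.90%). None passed either way between mothers and virgin males (beside 13.1%). Of 12 receptors and coreceptors with 20 UMIs, Sdc2 in mothers against virgin females was the only one past 1.5-fold in the 3 pairs, and of 11 sodium channel and partner genes it was Scn4b, in mothers against virgin males (1.52-fold [0.747, 3.23]). Among all genes, 13.1% to 13.2% passed 1.5-fold either way in each pair.

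Targets of the pathway other than Etv5 gave no common direction between mothers and virgin females: of 11 with 20 UMIs, 2 were higher and 2 lower by 1.5-fold (beside 6.66% and 6.55% of all genes), and the interval of each of the 4 included 1. Between virgin males and virgin females, 3 of 11 were higher and 2 lower (beside 5.90% and 7.19%). Between mothers and virgin males, where Etv5 was 3.04-fold higher, none of 9 targets was higher and 2, Dusp6 and Egr1, were lower (beside 7.04% and 6.05%). Between virgin males and virgin females, Sulf1 had 90.9 CPM in virgin males and 46.4 CPM in virgin females (1.96-fold [1.56, 2.47]), Hs3st4 had 100.3 CPM in virgin males and 171 CPM in virgin females (0.585 [0.495, 0.690]), and Map2k2, an ERK kinase, had 33.4 CPM in virgin males and 51.1 CPM in virgin females (0.654 [0.484, 0.877]). With equal weights the Hs3st4 ratio was 0.898. Ndst4 was also lower in virgin males than in virgin females (0.546 [0.387, 0.761], 0.930 with equal weights). Of 19 heparan sulfate genes, 2 were higher and 3 lower in virgin males than in virgin females (beside 5.90% and 7.19% of all genes), and 1 was higher and 1 lower in mothers than in virgin males (beside 7.04% and 6.05%). Between mothers and virgin males, Hs3st4 was higher in mothers (1.70-fold [1.44, 2.01]) and Sulf1 lower (0.523 [0.415, 0.657]). Sulf1 was highest in cluster 0, which made up 23.4% of neuronal nuclei in mothers, 31.4% in virgin males and 32.6% in virgin females. Hs3st4 was highest in clusters 1 and 4, which made up 19.4% and 16.9% in mothers and 26.0% and 11.3% in virgin males. The part of cluster sizes in the Sulf1 ratios and in this Hs3st4 ratio was not tested. Egr1, an immediate early gene that neuronal activity also induces, had 11 UMIs in mothers, 31 in virgin males and 21 in virgin females, or 4.09, 14.6 and 7.73 CPM. Its ratio was 0.280 [0.127, 0.572] for mothers over virgin males and 1.89 [1.05, 3.46] for virgin males over virgin females.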

How the data were processed

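Nuclei of 3 libraries, each from 3 pooled mice, were counted with the 10x Chromium 3′ assay. The authors deposited a table of raw UMI counts per gene and nucleus and a Seurat metadata table, per the file headers, with total counts, cluster and class labels and the percent of mitochondrial UMIs. Per the submitters' processing notes, Cell Ranger 5.0.1 and GRCm38 (mm10) were used. Intron and strand counting, nucleus filters and doublet treatment are not given in these sources, and no doublet caller was run. Intronic reads change what long genes receive, so the level of a gene was compared between clusters and libraries and not with that of another gene.

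The tables were joined by total UMIs and genes with a UMI, a pair unique to each of the 603 nuclei, and the deposited percent of mitochondrial UMIs matched the counts with a largest difference of 0. UMIs of neuronal nuclei were summed per cluster and library and given as CPM. Intervals (95%) were exact Poisson for CPM, conditional binomial for ratios and Clopper-Pearson for shares, and all cover counting error only, with UMIs taken as independent. The interval code was run on simulated Poisson counts, a check of the computation alone. With 1 library per group there is no test between groups. A ratio counts as past the threshold at 1.5-fold with 20 UMIs in the pair, and a cluster pattern at 2-fold in each library with 100 UMIs. A floor of 3 UMIs was 1.11 CPM in mothers, 1.41 CPM in virgin males and 1.10 CPM in virgin females. A likeness to a member was Pearson's r of log2(CPM + 10).

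Named genes were all members, pathway genes past 1.5-fold whose interval left out 1, and the 3 genes most like each member that met the 2-fold rule over clusters, and other pathway genes named were chosen after their values were seen. The members and lists were chosen with earlier results of these data known. Positions and promoters are from RefSeq on GRCm38.p6 and overlaps from GENCODE M21. Promoter windows existed for 8 members. Python 3.11.15, NumPy 2.4.6, SciPy 1.17.1 and pandas 2.3.3 were used.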

Additional observations from a re-analysis of the deposited data

Results flagged for a closer look

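The 11 nuclei annotated as non-neuronal held 77240 UMIs and entered no comparison except the setting of all nuclei given below. In these nuclei 5 members had more than the floor of 3 UMIs, while Fgf1 had 3, Etv5 had 1 and the other members none. Fgfr2 had 69 UMIs there (893 CPM [695, 1131], against 607 CPM in neuronal nuclei) and Fgfr1 had 16 (207 CPM [118, 336], against 24.3 CPM). Fgf14 had 21 UMIs, Fgf12 had 10 and Fgf13 had 6, and their levels of 272, 129 and 77.7 CPM were below the 2819, 2079 and 712 CPM of neuronal nuclei.

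For Fgf1 and Fgf10 the ratio between a pair of libraries passed 1.5-fold in opposite directions in different clusters, with each interval clear of 1. Mothers over virgin females gave 1.71 and 2.02 for Fgf1 in clusters 2 and 3 but 0.488 in cluster 4, and 3.47 and 3.22 for Fgf10 in clusters 1 and 2 but 0.348 in cluster 0. Virgin males over virgin females gave 2.11 for Fgf10 in cluster 2 but 0.492 in cluster 0. Fgf13 also pointed both ways, but past 1.5-fold in 1 direction alone: mothers over virgin females gave 1.52 in cluster 4 and 0.769 in cluster 2, virgin males over virgin females 0.468 in cluster 4 and 1.26 in cluster 0, and mothers over virgin males 3.26 in cluster 4 and 0.784 in cluster 2. In cluster 4 the ratio of mothers over virgin females for Fgf13 rested in part on few rich nuclei, as given above. For Fgf1 in cluster 4, the richest nucleus and the next held 9 and 6 of 30 UMIs in virgin females and 5 and 4 of 31 in mothers. The differences between clusters in all these ratios were not tested.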

How the results depend on the processing

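The log2 Fgf10 ratio of mothers over virgin females, 1.28 as reported, was 1.13 to 1.42 under 9 other settings, which were all nuclei, no richest 5% of nuclei, thinning to 5000 UMIs, a total without the 50 most abundant genes, no MHb nuclei, no nuclei rich in non-neuronal markers, no nucleus with most UMIs of the gene, the mean of per-nucleus CPM and equal cluster weights. The setting of all nuclei added the 11 non-neuronal nuclei. It held 202 nuclei of mothers, 205 of virgin males and 196 of virgin females, in place of 201, 204 and 187 neuronal nuclei. The setting without 5 nuclei of virgin males with at least 1% of UMIs in non-neuronal markers was chosen after seeing the data. The Fgf10 excess of cluster 2, 3.13, was 2.78 to 3.72 with a library left out and 2.99 to 3.17 otherwise. Members past 1.5-fold between mothers and virgin females numbered 3, but 1 with equal cluster weights, and after thinning Fgf1 was past it. Between virgin males and virgin females, where 1 member was past it, the count was 2 with all nuclei, 3 without the richest nuclei, 2 after thinning and 2 by the mean per nucleus, with Fgf11, Fgfr1 or both beside Etv5. Between mothers and virgin males the count was 3 or 4. Of 267 single ratios between libraries, 16 left their counting interval and none that was past 1.5-fold turned, and of 119 ratios of a member's highest cluster, 13 moved by more than 1 SD. The cause of these shifts was not tested.

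No paired analysis was possible because each group has 1 library. Depth limits Fgf11 (43 UMIs), Fgfr1 and Etv5 most, and thinning left 51 Fgfr1 UMIs in mothers and virgin males together.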
